A study of Mus musculus with 9 samples.

Results

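The mitosis and G2/M genes are 43 mouse genes whose products carry a cell from the end of interphase through chromosome segregation to its division. They were listed by name and kept where the mean over the 9 libraries was at least 1 FPKM (fragments per kilobase, corrected for library size) in both deposited tables. All 43 listed genes met this, out of 24318 genes in the tables, of which 10534 had such a mean. The libraries are polyA-selected RNA-seq of a cultured mouse cell line, in 3 groups of 3. SE-BDEV cells received brain-derived extracellular vesicles named for status epilepticus (seizure activity that does not stop), CON-BDEV cells received brain-derived vesicles named as control, and Vehicle cells were treated with vehicle. The library names read EV Pilo for SE-BDEV, EV Saline for CON-BDEV and CON for Vehicle. Extracellular vesicles are small membrane particles shed by cells and taken up by others. The labels give no genetic change to the cells, and no dose, exposure time, or strain, age or number of the brain donors. They also do not say whether replicates were separate cultures, so a p-value speaks only of the spread among these libraries, and that spread may be technical.

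The series' design text gives the cells as BV2, a microglial line, and the cell line label as N2a, a line from neuroblastoma. Of 16 microglia and macrophage markers, 14 averaged at least 1 FPKM, and their median was 86.6 FPKM. P2ry12 and Cx3cr1, receptors of microglia in the brain, were the exceptions. Of 17 neuroblastoma and neuronal markers, Uchl1 and Elavl4 reached 1 FPKM, and Th, Dbh and Mycn were listed at 0. The levels therefore go against the N2a label. Depth, estimated from the smallest steps between values because the files hold no counts, was lowest in CON-BDEV replicate 2, with 29080000 fragments, and highest in Vehicle replicate 2, with 33642000. A transcript of 2 kb at 1 FPKM then rests on 58.2 to 67.3 fragments.

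Entry into mitosis is driven by the kinase CDK1 bound to B-type cyclins, which CDC25 phosphatases switch on. The spindle checkpoint then holds back the anaphase-promoting complex (APC/C), a ubiquitin ligase that works with CDC20, until every kinetochore is attached to the spindle. Once released, the complex marks cyclin B and securin for destruction, sister chromatids part and the cell divides. Many of these genes are transcribed late in the cycle under the MuvB complex with B-MYB and FOXM1, are repressed in quiescent cells by the related DREAM complex, and carry in their promoters a cell cycle homology region (CHR) and CCAAT boxes bound by NF-Y. In the brain, microglia are the resident macrophages and can proliferate after injury.

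Promoter windows show what the members share at the DNA level. They run from 250 bases before to 50 bases after the annotated start, come from RefSeq on GRCm38.p6, and were found for 36 of the 43 members. They were not found for Ccna2, Cdc25c, Aurkb, Incenp, Kif20a, Tpx2 and Dlgap5. The windows below belong to 4 members that fell with SE-BDEV and to Ccnb1, the member with the highest level, whose values overlapped between groups. Each reads 5′ to 3′ on the gene's strand, and capitals mark the CHR letters (TTTGAA or TTCGAA) and CCAAT boxes, on either strand.
Cdc20 (chr4:118437294-118437593, minus strand): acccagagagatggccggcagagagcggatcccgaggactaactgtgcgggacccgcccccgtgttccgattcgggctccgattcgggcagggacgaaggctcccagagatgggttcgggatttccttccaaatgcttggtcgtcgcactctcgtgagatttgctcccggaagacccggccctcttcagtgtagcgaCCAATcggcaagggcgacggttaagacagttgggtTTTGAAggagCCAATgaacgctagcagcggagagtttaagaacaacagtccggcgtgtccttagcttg
Plk1 (chr7:122159185-122159484, plus strand): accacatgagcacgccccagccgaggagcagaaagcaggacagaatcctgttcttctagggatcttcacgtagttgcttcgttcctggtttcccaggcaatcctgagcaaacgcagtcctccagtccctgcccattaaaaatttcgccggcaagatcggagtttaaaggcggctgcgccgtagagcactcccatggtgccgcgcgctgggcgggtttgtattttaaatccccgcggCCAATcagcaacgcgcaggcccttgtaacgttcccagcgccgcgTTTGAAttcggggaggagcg
Cenpf (chr1:189688037-189688336, minus strand): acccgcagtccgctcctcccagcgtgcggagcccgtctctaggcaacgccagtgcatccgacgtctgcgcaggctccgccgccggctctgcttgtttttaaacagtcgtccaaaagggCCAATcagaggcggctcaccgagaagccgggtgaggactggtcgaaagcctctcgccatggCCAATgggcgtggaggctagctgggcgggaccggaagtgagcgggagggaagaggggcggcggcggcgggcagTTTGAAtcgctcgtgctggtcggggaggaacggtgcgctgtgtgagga
Kif22 (chr7:127042371-127042670, minus strand): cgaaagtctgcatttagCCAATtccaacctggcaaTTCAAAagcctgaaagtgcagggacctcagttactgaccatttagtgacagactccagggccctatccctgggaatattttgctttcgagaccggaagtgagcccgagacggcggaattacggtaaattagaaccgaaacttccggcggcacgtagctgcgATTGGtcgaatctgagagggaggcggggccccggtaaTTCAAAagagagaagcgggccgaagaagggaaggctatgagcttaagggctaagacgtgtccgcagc
Ccnb1 (chr13:100786437-100786736, minus strand): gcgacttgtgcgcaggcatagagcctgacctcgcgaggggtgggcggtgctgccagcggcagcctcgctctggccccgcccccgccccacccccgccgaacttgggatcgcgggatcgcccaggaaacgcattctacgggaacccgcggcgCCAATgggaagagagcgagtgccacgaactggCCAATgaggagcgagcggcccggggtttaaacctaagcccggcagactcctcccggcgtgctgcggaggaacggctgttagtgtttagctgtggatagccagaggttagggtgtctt
Counted with the start base as 1 and the base before it as -1, TTTGAA begins at -18 in Cdc20, at 31 in Plk1 and at 3 in Cenpf. In Kif22 it lies on the opposite strand and reads TTCAAA at -215 and -17. Ccnb1 has CCAAT at -99 and -67 and neither CHR spelling in this window. Among the members that fell with SE-BDEV, Nusap1 and Kif2c also had windows, which are not printed. Nusap1 held neither a CHR nor CCAAT, and Kif2c held a CHR without CCAAT.

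Over both strands, TTTGAA occurred in 26 of 36 member windows (72.2%), against 20.2% of the windows of all 27025 genes in the table. TTCGAA occurred in 4 member windows (11.1%), against 1.80%. Either spelling was present in 28 member windows (77.8%), against 21.7% of all genes and 16.3% of the 8135 genes with a window and at least 1 FPKM. CCAAT was also present in 28 (77.8%), against 41.1% of all genes. Windows with both numbered 25 (69.4%), against 8.61% of all genes. An E2F site, searched as TTTCCCGC, TTTGGCGC, TTTCGCGC or TTTGCCGC on either strand, was present in 1 member window (2.78%), against 2.60% of all genes. Among the 8135 genes with a window and at least 1 FPKM, 5.1% had an E2F site, 43.1% CCAAT and 6.9% a CHR with CCAAT. In 35 windows of genes for DNA replication and the G1/S step the picture was the other way round. A CHR was present in 6 of them (17.1%) and an E2F site in 13 (37.1%). The CHR did not set the genes past the threshold with SE-BDEV apart by count, since 5 of their 6 windows held it, against 23 of the 30 windows of the other members. CCAAT was present in 4 of those 6 windows and in 24 of those 30. These matches describe letters in a window and are not evidence of binding.

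The members were well expressed. Their means over the 9 libraries ran from 7.54 FPKM for Cdc25c, a phosphatase that activates CDK1, to 174 FPKM for Ccnb1, cyclin B1, and their median was 46.9 FPKM, against 16.3 FPKM for all genes kept. Behind Ccnb1 came Ube2c, the ubiquitin-conjugating enzyme of the APC/C (141.5 FPKM), the kinase Aurka (113 FPKM), the passenger scaffold Incenp (106 FPKM) and the topoisomerase Top2a (106 FPKM). Fth1 and Ftl1 were left out of the summed FPKM. Of that sum the 43 genes made up 0.393% to 0.404% in SE-BDEV, 0.376% to 0.405% in CON-BDEV and 0.417% to 0.423% in Vehicle. By this measure every vesicle library lay below every Vehicle library. Before Fth1 and Ftl1 were left out, the summed FPKM was 603302 in CON-BDEV replicate 2 and 612364 in Vehicle replicate 2. The estimates of both genes had failed in the comparison of CON-BDEV with Vehicle. Shares of those sums therefore cannot be compared between groups. The median coefficient of variation over the members was 3.37% in SE-BDEV, 5.17% in CON-BDEV and 2.48% in Vehicle, against 4.92%, 5.88% and 3.77% over all genes kept.

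**Figure D1:**
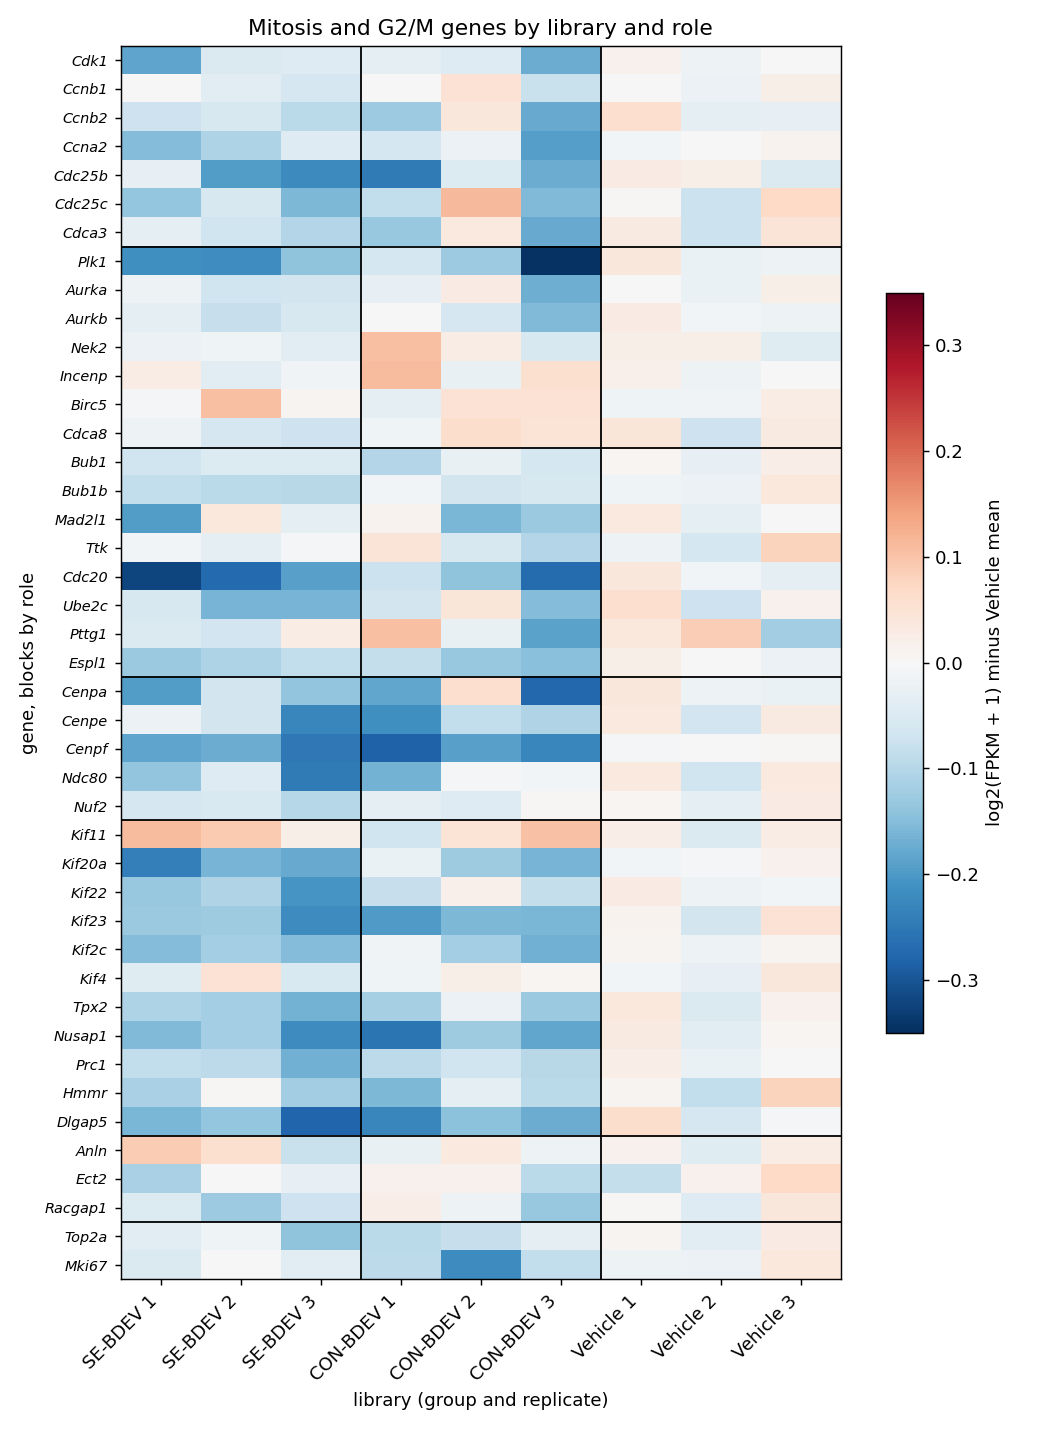
Each row is a member and each column a library, in the order SE-BDEV, CON-BDEV and Vehicle. Colour gives log2(FPKM + 1) minus the mean of the 3 Vehicle libraries. Lower values than in Vehicle fill most of the 6 vesicle columns, and the values closest to or above Vehicle lie in rows such as Kif11, Birc5 and Incenp.

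SE-BDEV against Vehicle asked what vesicles named for status epilepticus did to the cells. Of the 43 members 8 fell and 0 rose (limma, Benjamini-Hochberg adjusted p under 0.05 over 10535 genes), while 11.9% of all genes tested changed, 5.14% falling and 6.76% rising. Those that fell were Cdc20, the APC/C activator of anaphase, the mitotic kinase Plk1, the kinetochore protein Cenpf, and the spindle proteins Kif20a, Kif22, Kif2c, Nusap1 and Dlgap5. The falls were small, between 9.59% (Kif2c) and 16.6% (Cdc20) in mean FPKM. Fold changes here and below are differences of mean log2(FPKM + 1), here SE-BDEV minus Vehicle, and are given ± their standard error where it is shown. Over the members they ran from -0.26 to 0.074 with a median of -0.082, against -0.0008 over all genes tested, and 40 of 43 were below 0, against 50.2% of all genes. In 21 members all 3 SE-BDEV libraries lay below all 3 Vehicle libraries and in 0 above, against 16.3% and 16.5% of all genes (32.8% together). At an unadjusted p under 0.05, 18 members were lower and 0 higher, against 13.4% and 14% of all genes. In bulk RNA, fewer cells in G2 and mitosis and less of these RNAs per cell cannot be told apart.

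The count of 8 moved when a library was left out. Leaving out Vehicle replicate 1 gave 2, and Vehicle replicate 2 or 3 gave 3 each. Leaving out SE-BDEV replicate 1 or 2 gave 5 each, and SE-BDEV replicate 3 gave 4. Cdc20 and Kif20a passed the threshold in all 16 alternative fits that were run, Plk1 in 14 and Cenpf in 13, whereas Nusap1, Kif2c and Dlgap5 passed in 6 each and Kif22 in 5. The summed level of the 17 neuronal markers, nearly all of it Uchl1, a deubiquitinating enzyme, was 97.4 to 106 FPKM in SE-BDEV, 101 to 110 FPKM in CON-BDEV and 75.8 to 79.8 FPKM in Vehicle. The sum of 8 astrocyte markers was 36.4 to 40.3 FPKM in SE-BDEV, 37.5 to 41.1 FPKM in CON-BDEV and 44.9 to 46.0 FPKM in Vehicle, with only Aldoc above 1 FPKM on average. The sum of 8 oligodendrocyte markers was 11.8 to 12.5 FPKM in SE-BDEV, 10.8 to 13.4 FPKM in CON-BDEV and 13.9 to 14.1 FPKM in Vehicle, and that of 8 endothelial and blood markers was 42.5 to 47.0 FPKM in SE-BDEV, 35.8 to 44.2 FPKM in CON-BDEV and 35.2 to 40.3 FPKM in Vehicle. Of these lists 2 oligodendrocyte markers and 1 endothelial marker averaged at least 1 FPKM, and Mog, Mag, Cldn5 and Emcn were listed at 0. The sum of the 16 microglial markers was 3668 to 4058 FPKM in SE-BDEV, 3703 to 3929 FPKM in CON-BDEV and 3576 to 3723 FPKM in Vehicle. The part of these markers in the result was not tested.

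CON-BDEV against Vehicle asked the same of control vesicles, with fold changes of CON-BDEV minus Vehicle. Here 1 of 43 members fell and 0 rose, while 5.67% of all 10535 genes tested changed, 1.86% falling and 3.81% rising. The gene was Cenpf. The members' fold changes ran from -0.23 to 0.046 with a median of -0.072, against 0.0054 over all genes, and 37 of 43 were below 0, against 48% of all genes. In 13 members every CON-BDEV library lay below every Vehicle library and in 0 above, against 12.7% and 16.6% of all genes (29.3% together), and at an unadjusted p under 0.05 there were 10 lower and 0 higher, against 9.63% and 13.9%. The count was 0 without Vehicle replicate 1, 2 or 3 or CON-BDEV replicate 3, 2 without CON-BDEV replicate 1 and 4 without CON-BDEV replicate 2. After quantile normalization 4 members fell, and the share of higher genes among all calls with CON-BDEV was 54.7%, against 67.2% in the values as deposited. Both comparisons share the 3 Vehicle libraries.

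**Figure D2:**
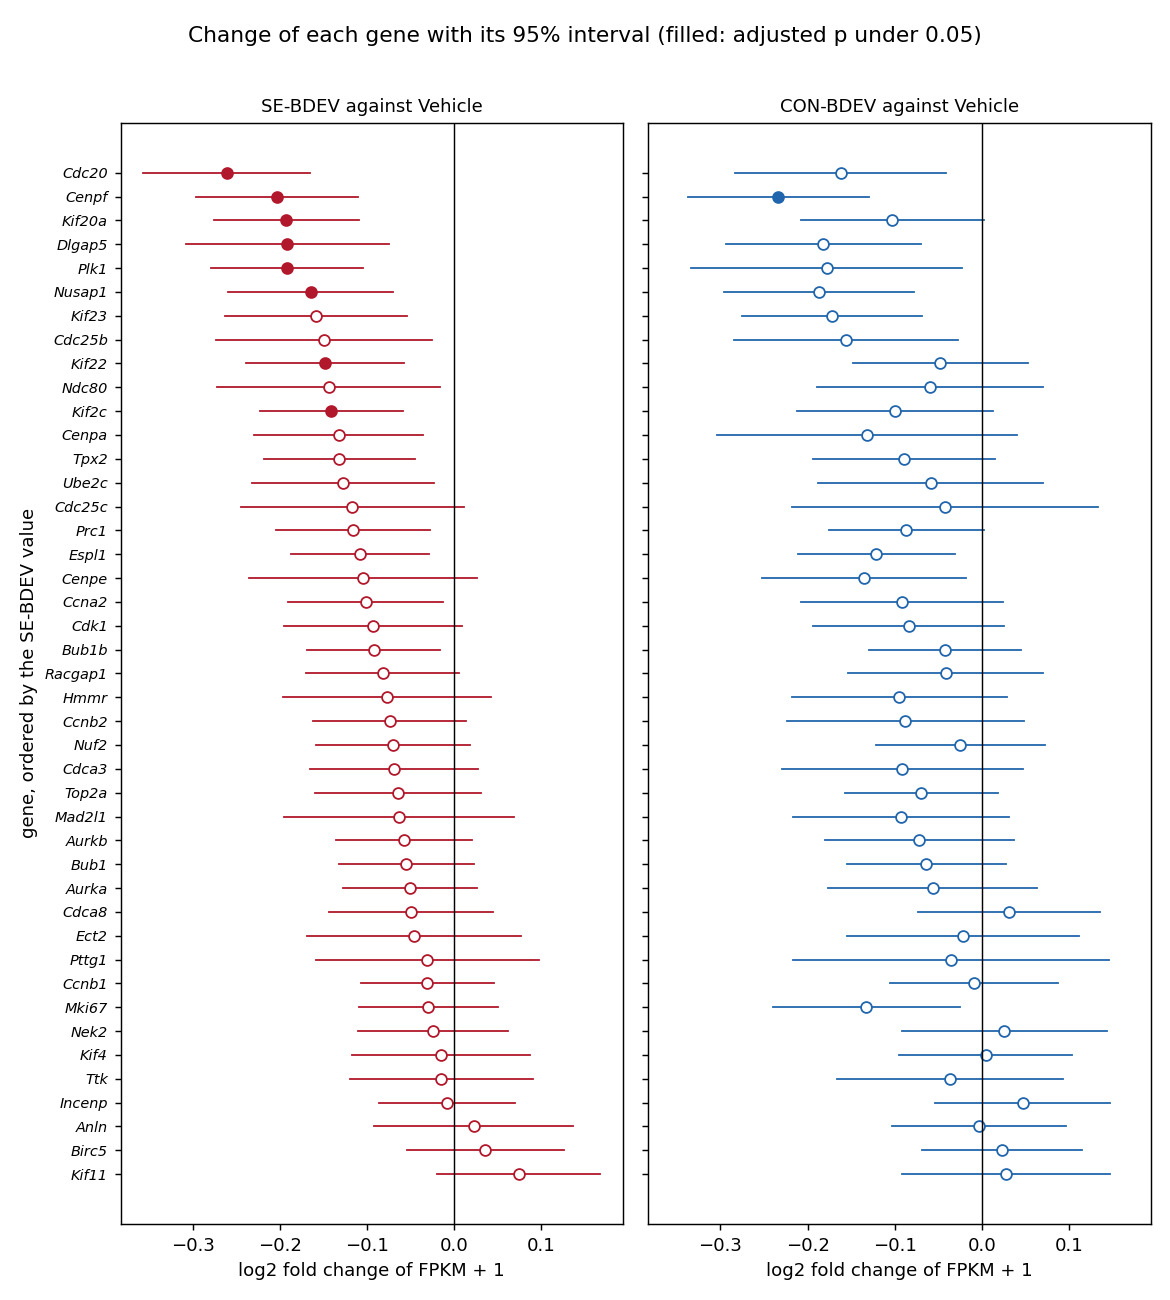
Points are the log2 fold changes of the 43 members for SE-BDEV against Vehicle and CON-BDEV against Vehicle, with bars for the 95% confidence interval of limma. Genes are ordered by the SE-BDEV value in both panels. Filled points passed an adjusted p of 0.05. Most points lie left of 0 in both comparisons, from -0.26 (Cdc20 with SE-BDEV) to 0.074 (Kif11 with SE-BDEV).

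None of the 7 genes of CDK1, its cyclins and its activators passed the threshold with either preparation by limma. Their median fold change was -0.093 with SE-BDEV and -0.088 with CON-BDEV, and at an unadjusted p under 0.05 there were 2 lower with SE-BDEV, 1 lower with CON-BDEV and 0 higher. Cdk1, the kinase itself, had 38.4, 42.2 and 42.3 FPKM in SE-BDEV, 42.7, 42.3 and 38.6 FPKM in CON-BDEV and 44.2, 43.2 and 43.8 FPKM in Vehicle. Every vesicle library lay below the lowest Vehicle library, by a margin that in SE-BDEV replicate 3 was under 1 FPKM (-0.093 ± 0.045, limma adjusted p = 0.220). Ccna2, cyclin A2, which partners CDK1 and CDK2 into early mitosis, had 41.6, 42.8 and 44.8 FPKM in SE-BDEV, 44.3, 45.6 and 40.3 FPKM in CON-BDEV and 45.9, 46.2 and 46.6 FPKM in Vehicle, again with no overlap with Vehicle (-0.10 ± 0.040 and adjusted p = 0.134 with SE-BDEV). The B-type cyclins were less uniform. Ccnb1 had 176, 172 and 169 FPKM in SE-BDEV, 176, 182 and 167 FPKM in CON-BDEV and 176, 173 and 179 FPKM in Vehicle. Its groups overlapped, and the 95% interval of its fold change with SE-BDEV ran from -0.11 to 0.046. Ccnb2 had 54.8, 55.4 and 53.9 FPKM in SE-BDEV, 52.7, 59.3 and 50.9 FPKM in CON-BDEV and 60.1, 56.4 and 56.4 FPKM in Vehicle, and CON-BDEV replicate 2 was above 2 of the Vehicle libraries. The phosphatases Cdc25b and Cdc25c and the mitotic entry factor Cdca3 had fold changes of -0.15, -0.12 and -0.069 with SE-BDEV and -0.16, -0.043 and -0.091 with CON-BDEV.

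Among the 7 mitotic kinases and members of the chromosomal passenger complex, which corrects faulty attachments, only Plk1 passed the threshold with SE-BDEV and 0 with CON-BDEV by limma, where 1 was lower and 0 higher at an unadjusted p under 0.05. Plk1, polo-like kinase 1, which acts at centrosomes, kinetochores and the midbody, had 65.3, 65.1 and 68.8 FPKM in SE-BDEV, 72.7, 69.5 and 59.6 FPKM in CON-BDEV and 78.1, 74.7 and 75.1 FPKM in Vehicle. All 6 vesicle libraries were below all 3 Vehicle libraries, and CON-BDEV replicate 3 was the lowest of the 9. It fell with SE-BDEV (-0.19 ± 0.039, limma adjusted p = 0.0142), and with CON-BDEV, where the libraries spread more, the fold change of -0.18 had an adjusted p of 0.160. Aurka, the kinase of centrosome maturation, had 114, 110.4 and 111 FPKM in SE-BDEV, 113, 118 and 103 FPKM in CON-BDEV and 116, 114 and 118 FPKM in Vehicle. Aurkb, the kinase of the passenger complex, had 63.0, 61.0 and 62.0 FPKM in SE-BDEV, 64.5, 62.0 and 57.9 FPKM in CON-BDEV and 65.9, 64.1 and 63.8 FPKM in Vehicle. In both the CON-BDEV range overlapped that of Vehicle, and neither passed the threshold (-0.051 and -0.058 with SE-BDEV).

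The passenger complex subunits other than Aurkb gave values on both sides of Vehicle. Birc5, survivin, which brings the complex to centromeres, had 86.2, 93.2 and 87.3 FPKM in SE-BDEV, 84.7, 89.8 and 89.8 FPKM in CON-BDEV and 85.8, 85.9 and 88.2 FPKM in Vehicle. Incenp, its scaffold, had 107, 102 and 104 FPKM in SE-BDEV, 114, 103 and 109 FPKM in CON-BDEV and 107, 104 and 105 FPKM in Vehicle. Cdca8, borealin, had 67.1, 65.3 and 64.7 FPKM in SE-BDEV, 67.3, 71.0 and 70.3 FPKM in CON-BDEV and 70.0, 64.6 and 69.5 FPKM in Vehicle. For all 3 genes the vesicle and Vehicle ranges overlapped. Their fold changes were 0.036, -0.0085 and -0.049 with SE-BDEV and 0.023, 0.046 and 0.031 with CON-BDEV, where Incenp and Cdca8 were the highest of all members. The centrosome kinase Nek2 had -0.025 with SE-BDEV and 0.025 with CON-BDEV. The median over the 7 genes was -0.049 with SE-BDEV and 0.023 with CON-BDEV.

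Of the 8 genes of the spindle checkpoint and anaphase control, Cdc20 fell with SE-BDEV and had the largest change of any member. Cdc20, the activator of the APC/C and target of the checkpoint, had 89.7, 92.8 and 98.4 FPKM in SE-BDEV, 107, 102 and 93.0 FPKM in CON-BDEV and 116, 112 and 109.9 FPKM in Vehicle. The order of the groups was the same at both ends of their ranges, with all vesicle libraries below all Vehicle libraries, and CON-BDEV overlapping SE-BDEV. The fold change was -0.26 ± 0.042 with SE-BDEV (limma adjusted p = 0.00576) and -0.16 with CON-BDEV (adjusted p = 0.111). The largest adjusted p for Cdc20 with SE-BDEV over the 16 alternatives was 0.0334, without Vehicle replicate 1. In mm9 its listed locus on chromosome 4, from 118100698 to 118109948, is also that of Elovl1, a fatty acid elongase, which rose with SE-BDEV to 62.6 FPKM, against 55.8 FPKM in Vehicle (0.16, adjusted p = 0.0477). Whether the authors' counting used strand is not given in the sources used here, so reads shared by these neighbours cannot be told apart.

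The checkpoint kinase Bub1 and the checkpoint protein Bub1b, BUBR1, had lower means in SE-BDEV than in Vehicle, with no overlap of libraries. Bub1 had 59.4, 60.4 and 60.3 FPKM in SE-BDEV, 58.0, 61.2 and 59.7 FPKM in CON-BDEV and 62.6, 61.1 and 63.4 FPKM in Vehicle. Bub1b had 96.7, 96.1 and 95.8 FPKM in SE-BDEV, 102, 98.2 and 98.8 FPKM in CON-BDEV and 102, 101 and 105 FPKM in Vehicle. Bub1b did not overlap between SE-BDEV and Vehicle, yet missed the threshold (-0.092 ± 0.034, limma adjusted p = 0.114). Ube2c, the enzyme that hands ubiquitin to the APC/C, had 142, 132 and 132 FPKM in SE-BDEV, 141, 152 and 133 FPKM in CON-BDEV and 154, 140.1 and 149 FPKM in Vehicle. Pttg1, securin, which keeps separase inactive until anaphase, had 32.2, 31.8 and 34.0 FPKM in SE-BDEV, 36.0, 32.8 and 29.2 FPKM in CON-BDEV and 34.3, 35.5 and 30.6 FPKM in Vehicle. Both had overlapping groups, with fold changes of -0.13 and -0.031 with SE-BDEV. Espl1, separase, the protease that cuts cohesin, ran from 47.8 to 49.3 FPKM in SE-BDEV, 47.2 to 49.4 FPKM in CON-BDEV and 51.7 to 53.1 FPKM in Vehicle, with adjusted p of 0.0794 and 0.110. The checkpoint genes Mad2l1 and Ttk had fold changes of -0.063 and -0.015 with SE-BDEV and -0.093 and -0.037 with CON-BDEV. The 8 genes had medians of -0.078 with SE-BDEV and -0.061 with CON-BDEV, and with CON-BDEV 0 of them passed the threshold, with 2 lower and 0 higher at an unadjusted p under 0.05.

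Cenpf was the member that fell with both preparations. This large protein of the nuclear matrix and outer kinetochore had 15.6, 15.7 and 14.8 FPKM in SE-BDEV, 14.5, 15.5 and 15.1 FPKM in CON-BDEV and 17.7, 17.9 and 17.9 FPKM in Vehicle. The 3 Vehicle libraries lay close together and every vesicle library was well below them. The fold change was -0.20 ± 0.041 with SE-BDEV (limma adjusted p = 0.0147) and -0.23 ± 0.046 with CON-BDEV (adjusted p = 0.0248). With CON-BDEV it passed the threshold in 10 of 16 alternatives and in 2 of the 6 fits that left out a library, and its adjusted p reached 0.111 when Vehicle replicate 2 was left out. In the deposited mm9 coordinates it lies on chromosome 1 from 191464493 to 191511965.

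The remaining kinetochore members, at the site where microtubules attach, missed the threshold. Cenpa, the histone variant that marks centromeres, had 61.2, 67.2 and 63.8 FPKM in SE-BDEV, 61.9, 73.2 and 57.9 FPKM in CON-BDEV and 72.2, 69.4 and 69.2 FPKM in Vehicle. Its SE-BDEV libraries were all below Vehicle, whereas CON-BDEV replicate 2 was the highest of the 9 (-0.13 ± 0.043, limma adjusted p = 0.0788 with SE-BDEV). Cenpe, the kinesin that carries chromosomes to the metaphase plate, had 34.8, 33.8 and 30.0 FPKM in SE-BDEV, 30.3, 33.3 and 32.8 FPKM in CON-BDEV and 36.2, 33.7 and 36.2 FPKM in Vehicle. Here CON-BDEV lay below Vehicle in all libraries and SE-BDEV overlapped it (-0.14, adjusted p = 0.159 with CON-BDEV). Ndc80 and Nuf2, subunits of the complex that binds microtubule ends, had fold changes of -0.14 and -0.070 with SE-BDEV and -0.060 and -0.025 with CON-BDEV. The 5 kinetochore members had a median of -0.13 with each preparation.

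**Figure D3:**
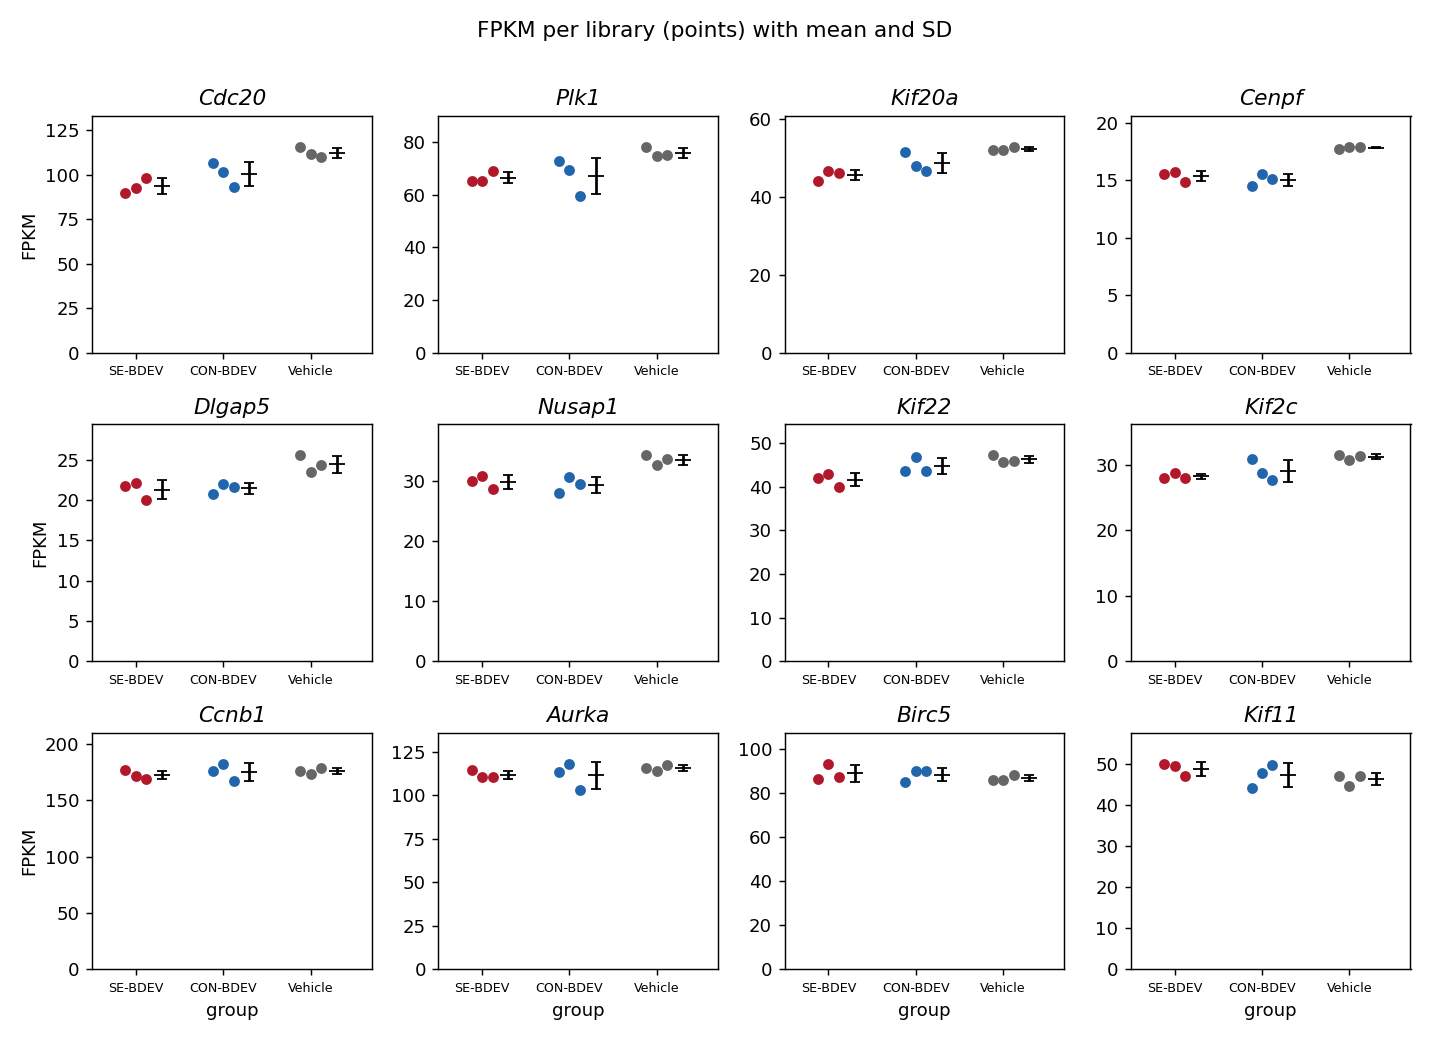
FPKM in each library for selected members, with SE-BDEV, CON-BDEV and Vehicle from left to right, points for libraries and bars for the mean and SD of 3. For Cdc20, Plk1 and Cenpf the 6 vesicle libraries lie below the 3 Vehicle libraries, and for Ccnb1 the groups overlap.

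Spindle motors and microtubule proteins held the most falls, with 5 of 11 lower with SE-BDEV and 0 higher, a median of -0.14, and 8 lower at an unadjusted p under 0.05. With CON-BDEV 0 of 11 passed the threshold by limma, the median was -0.095, and 3 were lower and 0 higher at an unadjusted p under 0.05. Kif20a, the kinesin MKLP2 of the central spindle, had 44.2, 46.6 and 46.2 FPKM in SE-BDEV, 51.5, 47.9 and 46.6 FPKM in CON-BDEV and 52.0, 52.1 and 52.9 FPKM in Vehicle. All vesicle libraries were below Vehicle, the CON-BDEV replicate 1 library by less than 1 FPKM. The fold change was -0.19 ± 0.037 with SE-BDEV (limma adjusted p = 0.0117) and -0.10 with CON-BDEV (adjusted p = 0.221), and the authors' tables give it the same locus as Brd8 and Cdc23. Kif2c, the kinesin MCAK, which takes microtubules apart at kinetochores, had 28.0, 28.7 and 28.0 FPKM in SE-BDEV, 30.9, 28.7 and 27.7 FPKM in CON-BDEV and 31.5, 30.8 and 31.4 FPKM in Vehicle. Its SE-BDEV libraries were below Vehicle, and CON-BDEV replicate 1 was inside the Vehicle range (-0.14 ± 0.037, adjusted p = 0.0380 with SE-BDEV). Kif22, the chromosome-arm kinesin Kid, had 42.2, 42.9 and 40.0 FPKM in SE-BDEV, 43.7, 46.9 and 43.7 FPKM in CON-BDEV and 47.3, 45.7 and 45.9 FPKM in Vehicle. SE-BDEV lay below both other groups, and CON-BDEV overlapped Vehicle (-0.15 ± 0.040, adjusted p = 0.0439 with SE-BDEV, and -0.048, adjusted p = 0.549 with CON-BDEV). The annotation also holds a pseudogene of Kif22, so its reads may be shared.

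Nusap1 and Dlgap5 fell with SE-BDEV and missed the threshold with CON-BDEV. Nusap1, which bundles spindle microtubules near chromosomes, had 29.9, 30.8 and 28.6 FPKM in SE-BDEV, 27.9, 30.6 and 29.4 FPKM in CON-BDEV and 34.2, 32.6 and 33.6 FPKM in Vehicle. Dlgap5, HURP, which stabilises the fibres that attach to kinetochores, had 21.8, 22.2 and 20.0 FPKM in SE-BDEV, 20.7, 22.1 and 21.6 FPKM in CON-BDEV and 25.6, 23.4 and 24.4 FPKM in Vehicle. In both genes all vesicle libraries were below all Vehicle libraries. For Nusap1 the fold change was -0.16 ± 0.042 with SE-BDEV (limma adjusted p = 0.0360) and -0.19 with CON-BDEV (adjusted p = 0.0574). For Dlgap5 it was -0.19 ± 0.052 with SE-BDEV (adjusted p = 0.0436) and -0.18 with CON-BDEV (adjusted p = 0.0674). Nusap1 shares its listed locus with Oip5, a centromere protein gene (-0.12, adjusted p = 0.283 with SE-BDEV).

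Just outside the threshold with SE-BDEV lay Tpx2, which activates Aurora A on the spindle (-0.13, limma adjusted p = 0.0561), and Kif23, the kinesin MKLP1 of the midzone (-0.16, adjusted p = 0.0570). Just inside it were Kif22 (adjusted p = 0.0439) and Dlgap5 (adjusted p = 0.0436). Kif11, the kinesin Eg5 that pushes spindle poles apart, was the member with the highest fold change with SE-BDEV. It had 50.2, 49.5 and 47.0 FPKM in SE-BDEV, 44.2, 48.0 and 49.9 FPKM in CON-BDEV and 47.2, 44.8 and 47.3 FPKM in Vehicle, with a 95% interval of -0.019 to 0.17 for the fold change of 0.074. Of the other spindle members, the midzone bundler Prc1 had -0.12 with SE-BDEV and -0.087 with CON-BDEV, the hyaluronan-binding spindle protein Hmmr -0.077 and -0.095, and the chromokinesin Kif4 -0.015 and 0.0040.

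The 3 cytokinesis genes, which build and place the contractile ring, had 0 past the threshold and 0 at an unadjusted limma p under 0.05 with either preparation. Anln, anillin, a scaffold of the ring, had 26.0, 25.4 and 23.1 FPKM in SE-BDEV, 24.0, 25.0 and 24.1 FPKM in CON-BDEV and 24.7, 23.7 and 24.9 FPKM in Vehicle, with overlapping groups. The RhoA activator Ect2 and its partner Racgap1 had fold changes of -0.046 and -0.082 with SE-BDEV and -0.022 and -0.042 with CON-BDEV. Top2a, which untangles DNA before segregation, had 106, 108 and 98.6 FPKM in SE-BDEV, 102, 103 and 106 FPKM in CON-BDEV and 109.6, 106 and 111 FPKM in Vehicle. Mki67, the Ki-67 coat protein of mitotic chromosomes and a common marker of cycling cells, had 82.1, 85.0 and 82.9 FPKM in SE-BDEV, 79.8, 72.9 and 80.1 FPKM in CON-BDEV and 84.0, 83.9 and 87.3 FPKM in Vehicle. The SE-BDEV libraries overlapped Vehicle for Mki67 (-0.030, limma adjusted p = 0.627), and the CON-BDEV libraries lay below it without passing the threshold (-0.13, adjusted p = 0.136).

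SE-BDEV against CON-BDEV asked whether the vesicle preparations differed in their effect on these genes, and its fold changes are SE-BDEV minus CON-BDEV. By limma 0 of 43 members, and 0% of all 10532 genes tested, passed the threshold. At an unadjusted p under 0.05 there were 1 higher member, Mki67, and 1 lower, Kif22, against 1.24% and 3.59% of all genes (4.83% together). Mki67 had the 3 SE-BDEV libraries above the 3 CON-BDEV libraries, with a fold change of 0.10 ± 0.044 and an adjusted p of 0.991. Kif22 had them below (-0.10 ± 0.044, adjusted p = 0.991), as did Cdca8, Bub1b and Nuf2. That gave 1 member without overlap upward and 4 downward, against 2.74% and 5.19% of all genes (7.94% together). The fold change was below 0 in 23 of 43 members, against 53% of all genes. For Cdc20 the fold change was -0.099 with a 95% interval from -0.22 to 0.019, for Kif20a -0.090 (-0.19 to 0.0075), for Plk1 -0.013 (-0.15 to 0.13) and for Cenpf 0.030 (-0.066 to 0.13). The members that passed the threshold with SE-BDEV and not with CON-BDEV were thus not shown to differ between the preparations.

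Seen per library, 11 of 43 members (25.6%) were lower in all 6 vesicle libraries than in any Vehicle library, against 8.35% of the 10532 genes. These were Cdk1, Ccna2, Plk1, Cdc20, Espl1, Cenpf, Kif20a, Kif23, Nusap1, Prc1 and Dlgap5. The number of members below every Vehicle library was 28, 26 and 34 in SE-BDEV replicates 1 to 3 and 27, 20 and 34 in CON-BDEV replicates 1 to 3. SE-BDEV replicate 3 was the lowest of the 9 libraries for 13 members and CON-BDEV replicate 3 for 14. Vehicle replicate 1 was the highest for 16 and Vehicle replicate 3 for 14. These counts per library were made for the members only, so no share over all genes stands beside them. The mean over the members of log2(FPKM + 1), less the Vehicle mean, ran from -0.11 to -0.07 in SE-BDEV, from -0.11 to -0.04 in CON-BDEV and from -0.03 to 0.02 in Vehicle.

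**Figure D4:**
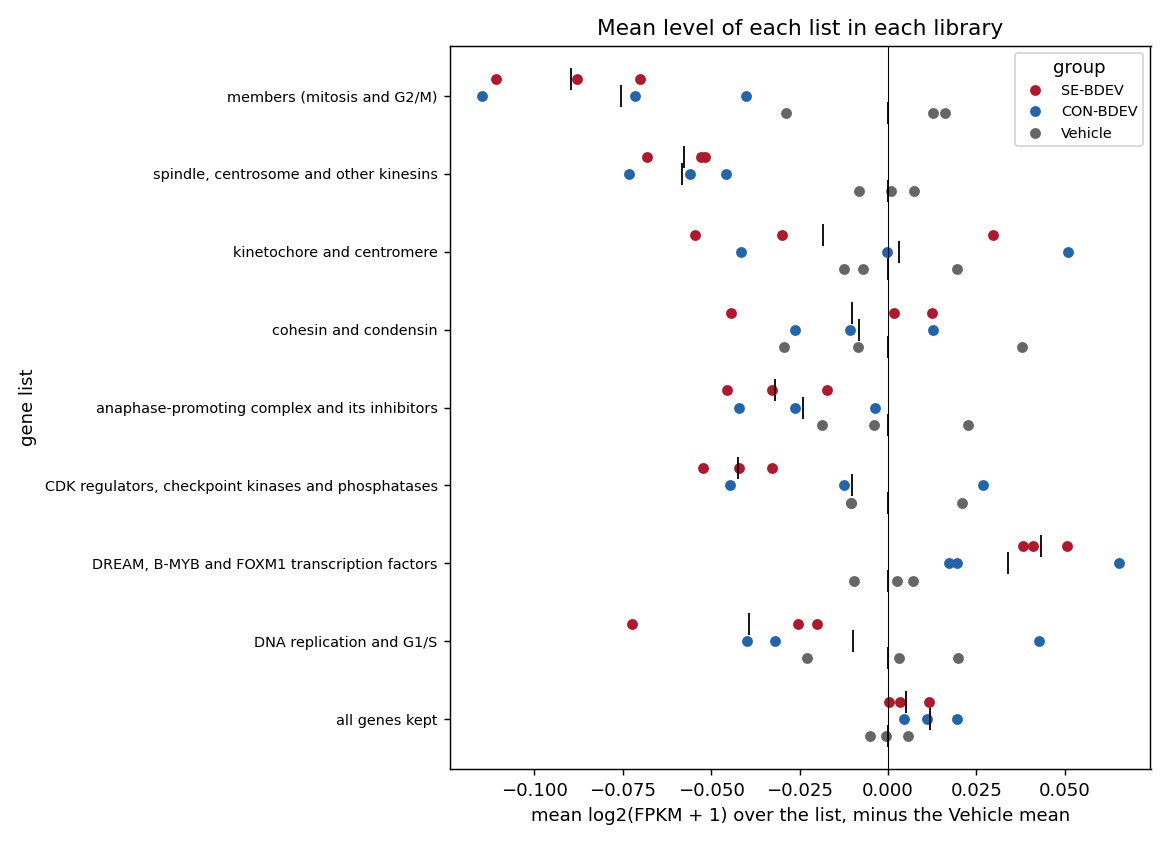
Mean log2(FPKM + 1) over the genes of each list, less the mean of the Vehicle libraries, with a point for each library and the lists running down the page. The 6 vesicle libraries of the 43 members lie at -0.04 or lower, and the Vehicle libraries between -0.03 and 0.02.

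Other genes of the same pathways were read from lists, with log2 fold changes against Vehicle given in parentheses. Beside the counts below, 6.76% of all genes tested rose and 5.14% fell with SE-BDEV. With CON-BDEV 3.81% rose and 1.86% fell. Of 22 genes of the DREAM, B-MYB and FOXM1 transcription machinery, 2 rose and 0 fell with SE-BDEV and 0 passed the threshold with CON-BDEV (limma), where 4 were higher and 0 lower at an unadjusted p under 0.05. Those that rose were E2f2, an activator E2F, at 12.6 ± 0.397 FPKM in SE-BDEV and 10.01 ± 0.422 FPKM in Vehicle (SD, n = 3 each), and E2f8, a repressor E2F, at 19.3 ± 0.713 FPKM in SE-BDEV and 16.6 ± 0.396 FPKM in Vehicle (SD, n = 3 each). Their fold changes were 0.30 and 0.20. Between SE-BDEV and CON-BDEV 0 of the 22 genes passed the threshold, so a rise particular to SE-BDEV was not shown. With CON-BDEV the list's most abundant genes, the E2F partner Tfdp1 and the B-MYB gene Mybl2, had fold changes of 0.027 and 0.13, with adjusted p of 0.796 and 0.0678. Among 27 CDK regulators and checkpoint kinases 1 rose and 4 fell with SE-BDEV, and 1 rose and 1 fell with CON-BDEV. Gadd45a, a stress-induced inhibitor of CDK1, averaged 20.6 ± 5.42 FPKM in SE-BDEV, 23.3 ± 7.52 FPKM in CON-BDEV and 11.1 ± 0.570 FPKM in Vehicle (SD, n = 3 each). Its fold change was 0.80 with SE-BDEV and 0.96 with CON-BDEV. Its relative Gadd45b fell with both (-0.39 with SE-BDEV and -0.32 with CON-BDEV). The CDK inhibitor Cdkn1c (-0.44) and Pkmyt1 (-0.24), a kinase that restrains CDK1, fell with SE-BDEV, as did Wee1 (-0.23), which also restrains CDK1 and was named after its values were seen.

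Of 40 further spindle, centrosome and kinesin genes 1 rose and 2 fell with each preparation. Over all genes tested, 11.9% changed with SE-BDEV and 5.67% with CON-BDEV. Fam83d, which recruits casein kinase 1 to the spindle, averaged 10.5 ± 0.604 FPKM in SE-BDEV, 10.7 ± 0.607 FPKM in CON-BDEV and 13.5 ± 0.535 FPKM in Vehicle (SD, n = 3 each), and fell with both (-0.34 with SE-BDEV and -0.31 with CON-BDEV). Fam64a fell with SE-BDEV (-0.18), and Aspm, a spindle pole protein, with CON-BDEV (-0.24). Aspm was also lower with SE-BDEV without passing the threshold (-0.12, limma adjusted p = 0.135). The mitochondrial gene Mtfr2 rose with both (0.35 with SE-BDEV and 0.27 with CON-BDEV). Of 33 kinetochore and centromere genes outside the members Cenpb, which binds centromeric DNA, fell with SE-BDEV (-0.20) and 0 rose. Cenpb averaged 56.9 ± 0.692 FPKM in SE-BDEV and 65.3 ± 2.15 FPKM in Vehicle (SD, n = 3 each). In this list 0 genes passed with CON-BDEV by limma, with 3 higher and 5 lower at an unadjusted p under 0.05. There the most abundant of the list, Pmf1 and Cenpb, had -0.042 and -0.079 with CON-BDEV.

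Neither the 18 APC/C genes nor the 19 cohesin and condensin genes had a call by limma with either preparation. At an unadjusted p under 0.05 the APC/C list had 0 higher and 3 lower with SE-BDEV and 1 higher and 0 lower with CON-BDEV, and the cohesin and condensin list 1 higher and 2 lower with SE-BDEV and 0 of each with CON-BDEV. The APC/C enzyme Ube2s averaged 269 ± 7.30 FPKM in SE-BDEV and 291 ± 16.1 FPKM in Vehicle (SD, n = 3 each) and the subunit Anapc13 123 ± 5.002 FPKM in SE-BDEV and 135 ± 8.88 FPKM in Vehicle (SD, n = 3 each), and the cohesin genes Smc1a and Rad21 had fold changes of 0.016 and -0.025 with SE-BDEV. Of 46 genes of DNA replication and G1/S, Mcm7, a subunit of the replicative helicase, fell with both (-0.20 with SE-BDEV and -0.18 with CON-BDEV), and Cdc45, its helicase partner, rose with SE-BDEV (0.19). Median fold changes of these lists ran from -0.059 to 0.017 with SE-BDEV and from -0.065 to 0.018 with CON-BDEV, against -0.082 and -0.072 for the 43 members.

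In the authors' deposited table of Cuffdiff tests, 0 of 43 members had a q under 0.05 in either comparison with Vehicle, where 5.36% of the genes tested did with SE-BDEV and 4.32% with CON-BDEV. The authors' deposited table gave a p under 0.05 for 4 members with SE-BDEV (Plk1, Cdc20, Cenpf and Dlgap5) and 4 with CON-BDEV (Plk1, Cenpf, Kif23 and Dlgap5), all lower and 0 higher. Over all genes it tested, the authors' deposited table had a p under 0.05 for 7.15% lower and 8.21% higher with SE-BDEV, and for 5.94% lower and 7.81% higher with CON-BDEV. Its lowest q among the members was that of Cenpf, at 0.135 with SE-BDEV and 0.0883 with CON-BDEV in the authors' deposited table. Ccnb1, Ccnb2 and Kif4 also have pseudogenes in the annotation, Ccna2 shares its listed locus with Exosc9 and Tpx2 with Mir5622, so their levels are less certain.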

How the data were processed

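PolyA RNA-seq libraries of 3 groups of 3 were grouped by their titles. Reads were processed with TopHat2 and Cuffdiff on build mm9, per the submitters' processing notes, with versions and annotation not given in the sources used here. The deposited tables, made by the authors, hold FPKM per gene and library, and those for CON-BDEV and SE-BDEV were normalized separately and share the Vehicle libraries. The authors' deposited Cuffdiff tables give a log2 fold change, a test score, a p-value and a q-value per gene.

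FPKM values were analysed as log2(FPKM + 1) with limma 3.58.1 in R 4.3.3 (lmFit, then eBayes with a trend on mean level, 2-sided). Only genes averaging 1 FPKM or more entered. Benjamini-Hochberg adjustment ran over all genes, with a threshold of 0.05. Comparisons with Vehicle stayed inside the table of that vesicle group. SE-BDEV was compared with CON-BDEV in 9 joined libraries, after the SE-BDEV table was divided by the geometric mean of the Vehicle ratios between tables (1.00042, 1.00012 and 1.00078). Printed FPKM of members and markers come from the joined libraries. Those of other genes come from the table of their comparison, with Vehicle as in the SE-BDEV table. Fth1 (both tables) and Ftl1 (CON-BDEV table), which Cuffdiff marked as having too many fragments, were left out of the fits of those tables. Both were left out of the joined fit and of the summed FPKM behind the members' shares. An exact permutation test of 3 against 3 cannot give a p below 0.1. Depth was estimated from 13 genes, using values under 0.05 FPKM and exon lengths of at least 4000 nt. The fits were tested on simulated data, in which 50 genes were changed at each fold change and at least 10332 were left unchanged. Of 1.1-fold changes they recovered 6% for SE-BDEV against Vehicle, 4% for CON-BDEV against Vehicle and 0% for SE-BDEV against CON-BDEV. In the same order they recovered 60%, 54% and 46% of 1.2-fold changes and 100%, 94% and 98% of 1.5-fold changes. Small changes were thus often missed in the simulated data. The share of truly changed genes in the real data is not known and affects the adjusted p, so these rates may not carry over.

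The members and lists were chosen with earlier results of these data known. Values in every library are given for members past the threshold, for 20 members that cover the roles, and for the 3 highest and 3 lowest fold changes of each comparison. From each further list, at most 4 genes past the threshold with the largest changes are named, or the 2 most abundant where none passed. Replicate numbers in the titles showed no sign of pairing libraries. Alternatives covered the pseudocount, the filter, scaling, the mean-variance trend, blocks and each library left out.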

Additional observations from a re-analysis of the deposited data

How the results depend on the processing

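The count of the 43 members that fell with SE-BDEV was 8. With low values left in it was 5, and it was 13 after quantile normalization, and 4 each without the mean-variance trend, with a replicate block, with a block on the library-name number and in a fit of all 9 joined libraries. The library-name number is the first digit in a library's name. Vehicle replicates 1 and 2, CON-BDEV replicate 1 and SE-BDEV replicate 1 share it, so it is spread unevenly over the groups and partly overlaps the comparison. Leaving out a library gave 2 to 5 of the 43 members, and 501 to 1311 for all genes, where the full fit had 1253. With no filter 726 genes passed, and 830 in the joined fit. The members' median with SE-BDEV was -0.11 after quantile normalization. For CON-BDEV, where 1 member fell, the count was 0 with no filter and with the replicate block, 3 with median-ratio scaling and in the joined fit, 4 after quantile normalization and 0 to 4 with a library left out. All genes with CON-BDEV numbered 597, against 112 with no filter, 364 with the replicate block, 275 with the library-name block and 84 to 1067 with a library left out, and the members' median was -0.12 after quantile normalization. For SE-BDEV against CON-BDEV 1 gene passed without the trend and 0 to 1 with a library left out, against 0. The cause of these differences was not tested. No value changed sign past the threshold, and 0 members rose in any setting. The title numbers showed no sign of pairing the libraries. Same-numbered libraries had a mean correlation of -0.04 (-0.26 to 0.19) after group means were removed, and 3 of 9 were closest to their own number. With so few libraries per group this check cannot exclude pairing. The files hold no counts, so depth is an estimate.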
